A study of Mus musculus with 24 samples.

Results

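Tuft cell markers were described as 10 genes: Pou2f3, Gfi1b, Trpm5, Rgs13, Dclk1, Ptgs1, Hpgds, Alox5, Alox5ap and Vil1. Their members were the probe sets that the platform annotation pairs with these symbols, and each gene was read from the brightest of its probe sets, by the mean of all arrays. Of the 10 genes 9 were measured, by 19 of 45101 probe sets, among 18193 genes in all. Ptgs1, which encodes the cyclooxygenase that starts prostaglandin synthesis, had no probe set under its symbol and was not analysed here. RNA of mouse small intestine had been measured on 24 Affymetrix arrays, 3 in each of 8 groups. The groups were crypts and villi of wild-type (WT), Rb-/- (Rb), E2f1-/-;E2f2-/-;E2f3-/- (TKO) and E2f1-/-;E2f2-/-;E2f3-/-;Rb-/- (QKO) mice. All mice, WT included, were 2 months old, of a mixed C57BL/6 and FVB background, and were sampled 7 days after intraperitoneal beta-napthoflavone (spelled as in the labels), a ligand of the aryl hydrocarbon receptor. The labels name no Cre driver or promoter, so it is not known here which cells lost each gene, or whether RNA was pooled over animals.

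Tuft cells are rare, scattered epithelial cells that carry a long tuft of microvilli and taste-like receptors. Pou2f3 is required for them to form in mice, and Trpm5 carries the current that follows receptor activation. They also make prostaglandins and leukotrienes, which act on nearby immune and nerve cells. Rb holds E2f transcription factors in check, and E2f1 to E2f3 control genes of the cell cycle.

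The arrays differed in ways the genotypes do not explain. Bacterial poly-A controls read 5.44 to 7.13 on the 12 arrays with E2f1 to E2f3 and 9.70 to 11.89 on the 12 arrays without them. For TKO minus WT and QKO minus Rb, this technical difference and E2f status cannot be told apart. By the Y-linked gene Eif2s3y the WT and Rb crypt arrays were female and the QKO arrays male. Male too were arrays 1 and 3 of Rb villi and arrays 2 and 3 of both TKO groups. Rb1 went against the label on the array labelled WT crypts 3 (8.46, beside 10.31 and 10.59) and on that labelled Rb crypts 2 (10.25, beside 8.23 and 8.87). Results on WT or Rb crypts therefore refer to arrays so labelled. Values are log2 expression, and the median over all genes and arrays was 6.39. Levels of different genes come from different probe sets and are not compared with each other.

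Promoter windows were examined because the genotypes remove E2f factors and Rb, and because Rgs13 and Dclk1 varied together across arrays. RefSeq's table (GRCm38.p6, 250 bases before to 50 after the start) held an entry for 8 of the 10 genes. Windows were searched on both strands for the E2f motifs TTTCCCGC, TTTGGCGC, TTTCGCGC and TTTGCCGC, and for the octamer ATGCAAAT, the element read by POU factors such as Pou2f3. Of 32851 windows of the same length, 744 (2.26%) held an E2f motif and 570 (1.74%) the octamer. Gfi1b, a transcriptional repressor gene, held 2 E2f matches, whose first bases lie at -98 and -8 from the start. Hpgds held the octamer, at -174. The windows of Trpm5, Rgs13, Dclk1, Ptgs1, Alox5 and Vil1 held neither motif. The window of Rgs13 had 0 CpG dinucleotides, as had 5.43% of all windows, against a median of 7. The windows of Gfi1b (chr2:28621933-28622232, minus strand), Rgs13 (chr1:144177323-144177622, minus strand) and the first and second entries of Dclk1 (chr3:55242114-55242413 and chr3:55461478-55461777, plus strand) are shown 5′ to 3′, with E2f matches in capitals.
Gfi1b: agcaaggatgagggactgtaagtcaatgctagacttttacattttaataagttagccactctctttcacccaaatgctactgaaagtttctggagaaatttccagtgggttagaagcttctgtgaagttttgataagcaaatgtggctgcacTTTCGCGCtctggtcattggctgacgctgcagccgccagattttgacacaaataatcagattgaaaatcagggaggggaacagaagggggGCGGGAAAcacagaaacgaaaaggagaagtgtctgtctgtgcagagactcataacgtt
Rgs13: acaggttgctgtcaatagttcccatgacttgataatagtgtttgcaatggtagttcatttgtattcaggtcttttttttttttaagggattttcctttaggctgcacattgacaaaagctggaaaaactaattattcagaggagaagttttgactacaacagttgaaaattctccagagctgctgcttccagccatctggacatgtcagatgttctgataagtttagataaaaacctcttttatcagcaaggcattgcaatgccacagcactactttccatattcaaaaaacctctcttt
Dclk1, first entry: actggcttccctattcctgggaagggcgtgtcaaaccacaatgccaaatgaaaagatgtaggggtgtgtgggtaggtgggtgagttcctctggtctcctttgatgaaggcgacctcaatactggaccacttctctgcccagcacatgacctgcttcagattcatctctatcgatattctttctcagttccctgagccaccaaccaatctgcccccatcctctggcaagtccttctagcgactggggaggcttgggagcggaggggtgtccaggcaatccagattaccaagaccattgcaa
Dclk1, second entry: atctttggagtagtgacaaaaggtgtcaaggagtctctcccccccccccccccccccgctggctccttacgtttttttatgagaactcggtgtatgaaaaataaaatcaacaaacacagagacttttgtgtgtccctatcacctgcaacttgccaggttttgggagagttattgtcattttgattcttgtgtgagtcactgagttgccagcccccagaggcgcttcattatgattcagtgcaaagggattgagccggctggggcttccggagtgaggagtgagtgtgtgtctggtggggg
A match is a description of letters, not a site, and the absence of a match says only that these letters are not in the window.

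The genotype differences that were called lay in villi. Rgs13 and Dclk1 were higher in villi of Rb than of WT, Rgs13 and Alox5ap were lower in TKO than in WT villi, and all of Rgs13, Dclk1 and Alox5ap were higher in QKO than in TKO villi. In each genotype comparison of crypts 0 of 9 markers were called, but in Rb minus WT crypts 0 of all genes were called. For no marker was a genotype difference called as differing between villi and crypts. Differences were tested with limma over all 18193 genes, and "called" stands for an adjusted p under 0.05. The SE pools the spread of all 24 arrays. In RNA of a whole compartment, fewer tuft cells and less RNA per tuft cell cannot be told apart. No label tells if the 3 arrays of a group stand for 3 animals, so p-values measure only the spread between these arrays.

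Read against all genes, the shares of called markers varied. In villi 2 of 9 markers were called in Rb minus WT, beside 14.8% of all genes, and both were higher. Of 9 markers 2 were called in TKO minus WT, beside 9.77% of all genes, and both were lower. QKO minus TKO had 3 of 9 called, all higher, beside 6.68%, and QKO minus Rb had 1, lower, beside 22.2%. In crypts the background was 0.0% for Rb minus WT, 4.73% for TKO minus WT, 1.61% for QKO minus TKO and 17.2% for QKO minus Rb. At an unadjusted p under 0.05 there was 1 marker, Gfi1b, in each of the first and second of these crypt comparisons and 0 in the others. The share of all genes at that threshold was not counted, here or below. Median differences over the 9 markers in villi were 0.08, -0.34, 0.45 and -0.11 in the order given, against -0.08, -0.03, 0.04 and 0.08 over all genes.

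**Figure D1:**
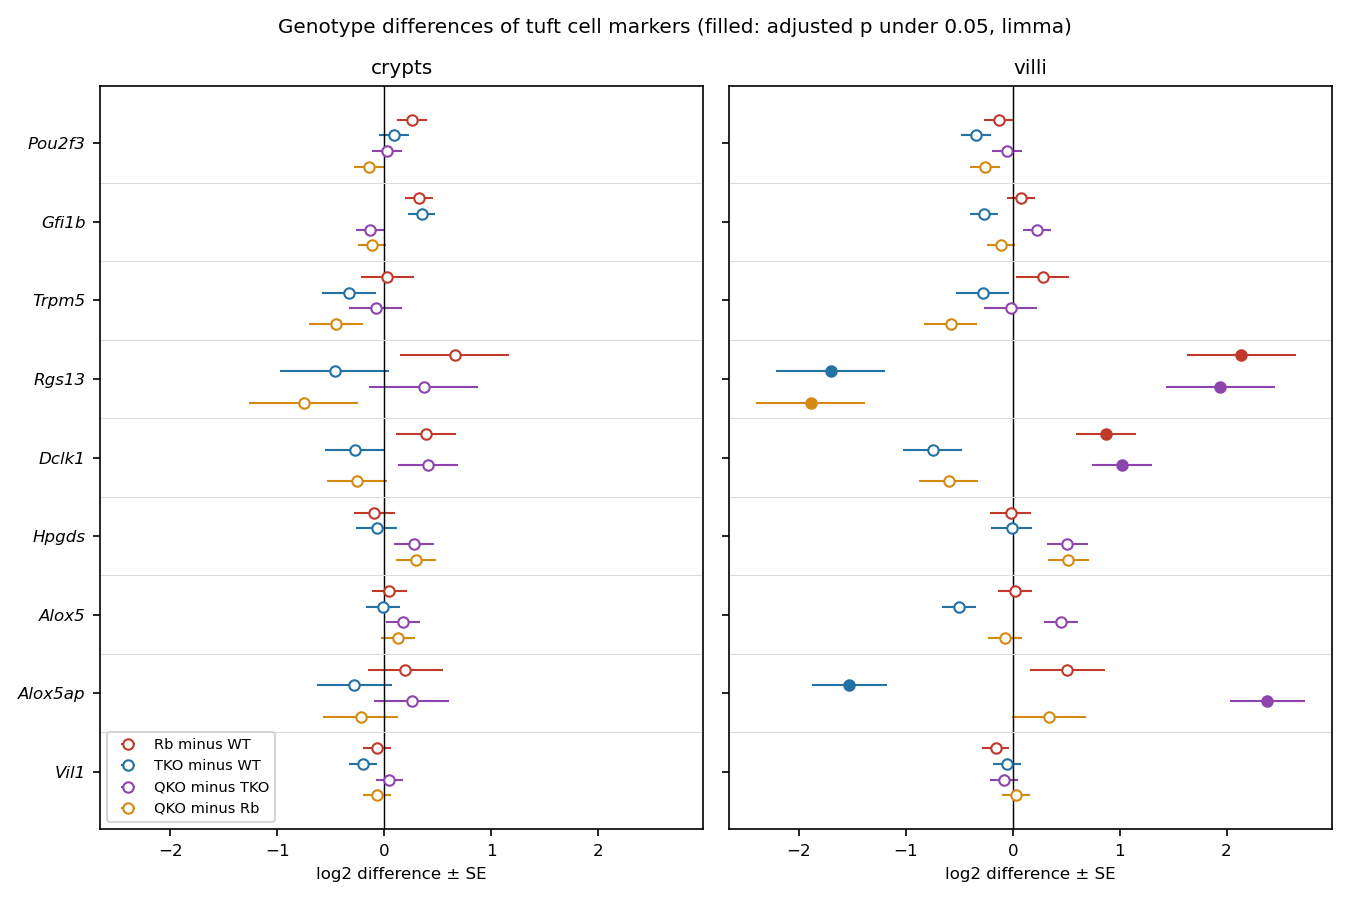
Log2 differences ± SE (x axis) of 9 tuft cell markers (y axis) between genotypes, in crypts (left) and villi (right), from limma over all 24 arrays. Filled points have an adjusted p under 0.05: none lies in crypts, and in villi they are those of Rgs13, Dclk1 and Alox5ap.

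Pou2f3 (chr9:43123927-43205755, GRCm38.p6) encodes the POU transcription factor that specifies tuft cells in mice. It read 5.88, 5.93 and 5.99 in WT crypts and 6.63, 6.19 and 6.47 in WT villi. Every WT villus array lay above every WT crypt array, and the difference of 0.50 ± 0.14 was called (adjusted p = 0.0078). Rb villi read 6.38, 6.33 and 6.19, TKO villi 6.04, 6.22 and 6.01, and QKO villi 6.06, 5.96 and 6.09. TKO minus WT in villi was -0.34 ± 0.14 (adjusted p = 0.14) and QKO minus TKO -0.05 ± 0.14 (adjusted p = 0.88). No genotype difference of Pou2f3 was called, and without WT villi 1 the villus difference in WT was 0.40 (adjusted p = 0.053).

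Gfi1b (chr2:28609450-28621982) encodes a zinc finger repressor that also acts in blood cell lineages. It read 5.40, 5.45 and 5.49 in WT crypts and 5.79, 5.92 and 5.62 in WT villi. These groups did not overlap, and the difference was 0.33 ± 0.13 (adjusted p = 0.049). This call ended under 11 of 16 alternative settings, with adjusted p up to 0.18. TKO crypts read 6.01, 5.60 and 5.80, above all WT crypt arrays, whereas TKO villi read 5.60, 5.43 and 5.49, below all WT villus arrays. Neither difference was called (0.35 ± 0.13, adjusted p = 0.12, and -0.27 ± 0.13, adjusted p = 0.23). The difference between them, -0.62 ± 0.18, had an adjusted p of 0.062, and of 0.049 with the replicate number as a block, where numbers paired crypts with villi in TKO but not in WT. All 8 group means of Gfi1b lay below 6.39, the median of all genes.

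Trpm5 (chr7:143071529-143094642), the calcium-activated cation channel of taste and tuft cells, had 3 probe sets. The brightest read 5.93, 5.42 and 5.99 in WT crypts, 6.00, 5.19 and 6.25 in Rb crypts, 5.73, 5.06 and 5.56 in TKO crypts and 5.29, 5.48 and 5.33 in QKO crypts. In villi it read 6.32, 5.93 and 6.26 in WT, 6.80, 6.23 and 6.32 in Rb, 5.83, 5.54 and 6.30 in TKO and 6.03, 5.89 and 5.68 in QKO. The villus mean was above the crypt mean in each genotype, but 0 of the 12 comparisons was called. Villi minus crypts was 0.64 ± 0.25 in Rb (adjusted p = 0.082), and QKO minus Rb in villi was -0.58 ± 0.25 (adjusted p = 0.098). With every probe set tested, the second was called in QKO villi minus crypts (0.64, adjusted p = 0.019). The third was called in villi minus crypts of WT (0.57, adjusted p = 0.021) and of Rb (0.58, adjusted p = 0.036). In the order of group means no neighbours differed by more than the larger of their SDs.

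Rgs13 (chr1:144137386-144177372) encodes a regulator of G protein signalling, which shortens the active state of G proteins. In villi it read 6.32, 6.59 and 7.00 in WT, 9.04, 8.49 and 8.79 in Rb, 6.16, 3.98 and 4.67 in TKO and 7.11, 7.07 and 6.46 in QKO. All Rb arrays stood above every other villus array, and all TKO arrays stood below every other one. Rb minus WT in villi was 2.14 ± 0.51, or 4.39-fold (adjusted p = 0.0057), and it was called under all 17 alternatives, with values from 1.98 to 2.70. QKO minus Rb was -1.89 ± 0.51 (adjusted p = 0.010), called under all 17 alternatives, from -2.04 to -1.61. The ranges of QKO and WT villi overlapped.

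The lower end of Rgs13 was less firm. TKO minus WT in villi was -1.70 ± 0.51 (adjusted p = 0.037) and QKO minus TKO was 1.94 ± 0.51 (adjusted p = 0.024). TKO villi 1, from the female of that group, read 6.16 against 3.98 and 4.67 in the males. With sex as a covariate TKO minus WT was -1.13 (adjusted p = 0.27). It also lost its call without any of WT villi 1, 2 or 3 or TKO villi 2 or 3 (adjusted p 0.055 to 0.22), and QKO minus TKO lost its call without TKO villi 2 or 3 or QKO villi 1 or 2 (adjusted p 0.053 to 0.16).

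In crypts Rgs13 read 6.49, 5.23 and 6.95 in WT, 7.18, 5.80 and 7.66 in Rb, 6.53, 5.58 and 5.17 in TKO and 6.30, 6.43 and 5.67 in QKO. These ranges overlapped. Rb minus WT was 0.66 ± 0.51 (adjusted p = 1.0). Without the array labelled WT crypts 3 and that labelled Rb crypts 2 it was 1.56 (adjusted p = 0.33). Villi minus crypts in Rb was 1.89 ± 0.51 (adjusted p = 0.014), beside 17.3% of all genes called, and 1.35 (adjusted p = 0.11) without those arrays. The same loss followed without Rb villi 1 (1.76, adjusted p = 0.062). Rb villi stood 1.89 above the next group mean, more than the larger SD of 0.96, and no other neighbours in the order differed beyond their SDs.

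Dclk1 (chr3:55242303-55539068) encodes a doublecortin-like kinase bound to microtubules and is the most used tuft cell marker of mouse intestine. Its brightest of 9 probe sets read 5.13, 5.15 and 5.64 in WT villi, 6.76, 5.80 and 5.97 in Rb villi, 5.15, 4.32 and 4.19 in TKO villi and 5.65, 5.75 and 5.31 in QKO villi. The Rb arrays lay above all other villus arrays, and QKO lay above TKO without overlap. Rb minus WT was 0.87 ± 0.28, or 1.83-fold (adjusted p = 0.039), and QKO minus TKO was 1.02 ± 0.28, or 2.03-fold (adjusted p = 0.031). TKO minus WT, at -0.75 ± 0.28, was not called (adjusted p = 0.098), nor was QKO minus Rb, at -0.60 ± 0.28 (adjusted p = 0.13).

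Crypt levels of Dclk1 were 4.71, 4.76 and 5.28 in WT, 5.37, 4.98 and 5.57 in Rb, 5.08, 4.51 and 4.35 in TKO and 4.97, 5.44 and 4.76 in QKO. The crypt ranges overlapped, and Rb minus WT was 0.39 ± 0.28 (adjusted p = 1.0). This overlap rested on WT crypts 3 (5.28) and Rb crypts 2 (4.98), where Rb1 went against the label. The remaining crypt values, 4.71 and 4.76 in WT and 5.37 and 5.57 in Rb, did not overlap. These values therefore do not show that the higher Dclk1 of Rb is confined to villi. Villi minus crypts was called in Rb (0.87 ± 0.28, adjusted p = 0.035) but not without the array labelled Rb crypts 1 (0.90, adjusted p = 0.078), that labelled Rb crypts 2 (0.71, adjusted p = 0.17) or Rb villi 1 (0.58, adjusted p = 0.22).

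The calls of Dclk1 in villi rested on its brightest probe set. In Rb minus WT villi, the next brightest and 1 other gave 0.57 ± 0.20 and 0.52 ± 0.18 (adjusted p = 0.069 and 0.063 with every probe set tested), and the other 6 lay between -0.14 and 0.11. The mean over all 9 gave 0.23 (adjusted p = 0.18) in Rb minus WT and 0.24 (adjusted p = 0.22) in QKO minus TKO. The mean levels of the other 8 probe sets, 2.93 to 4.30, lay further below the median of all genes than that of the brightest, 5.19. One of these, with a mean of 4.05, was called lower in QKO minus Rb crypts (-0.53 ± 0.14, adjusted p = 0.0088 with every probe set tested), the only call of a marker's probe set between genotypes in crypts. It read 4.48, 4.18 and 4.74 in Rb crypts and 3.77, 3.96 and 4.06 in QKO crypts, without overlap. Its Rb minus WT difference in crypts was 0.63 ± 0.14 (adjusted p = 1.0, unadjusted p = 0.00014). The brightest probe set was not called in either. The Rb minus WT call was also lost without WT villi 1 (0.78, adjusted p = 0.13), WT villi 2 (0.79, adjusted p = 0.12), Rb villi 1 (0.58, adjusted p = 0.22) or Rb villi 3 (0.97, adjusted p = 0.058). That of QKO minus TKO was lost without TKO villi 2 or 3 or QKO villi 1 or 2, with adjusted p from 0.060 to 0.14.

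**Figure D2:**
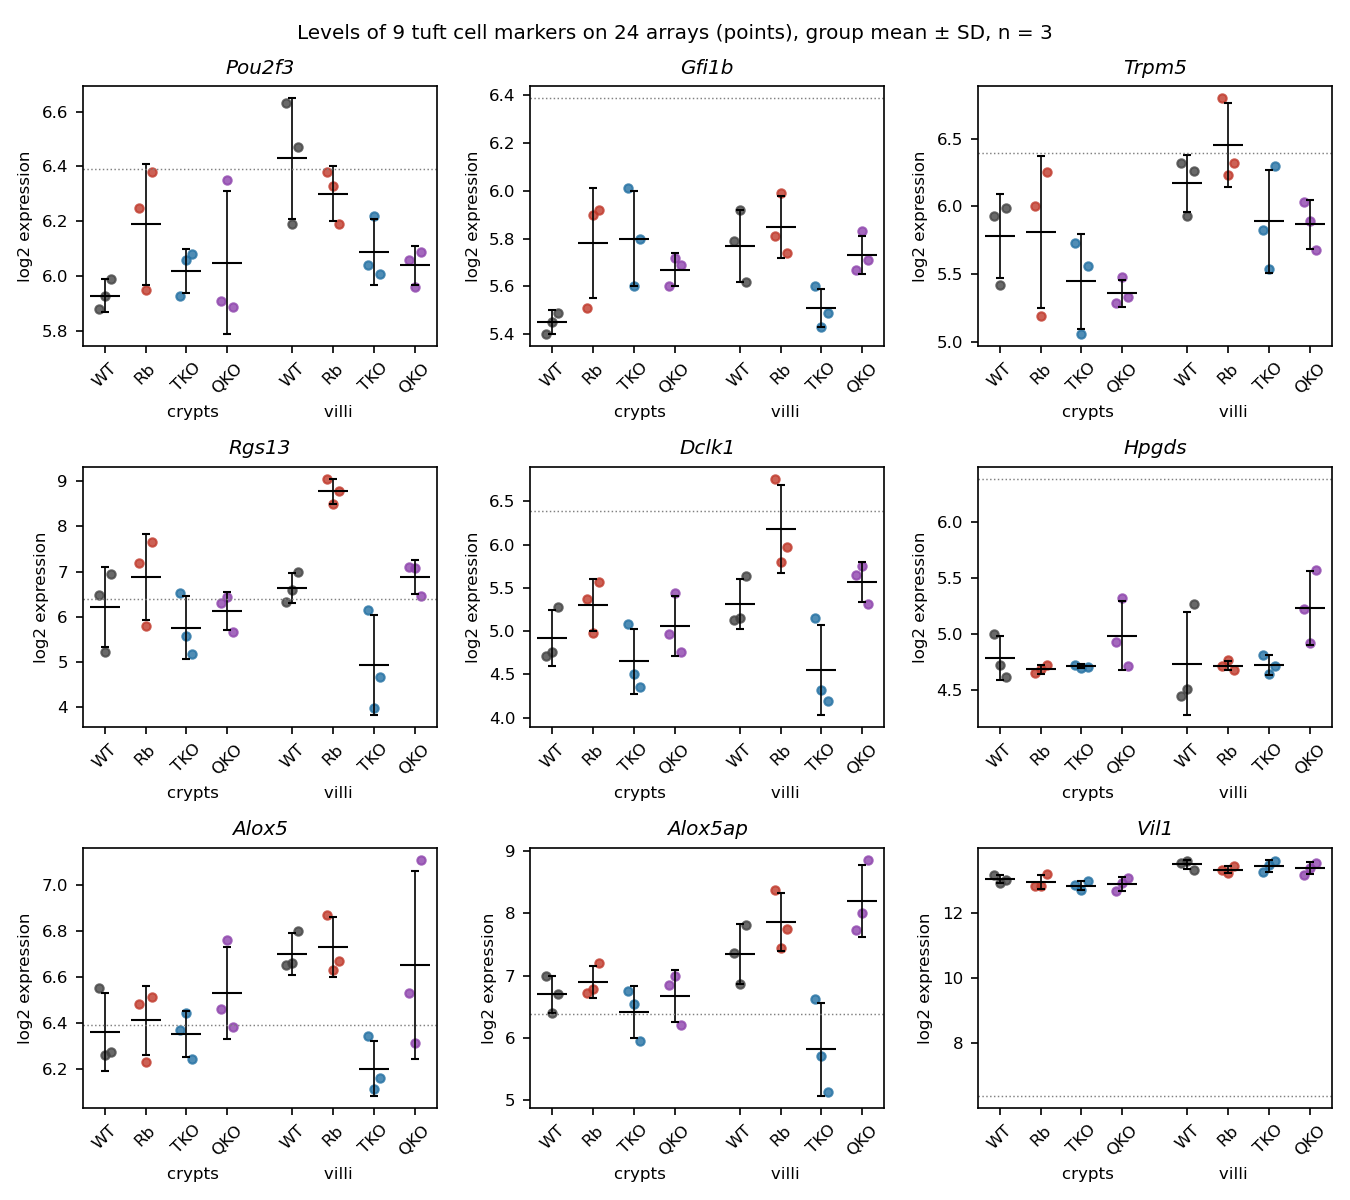
Log2 expression (y axis) of 9 tuft cell markers on each of 24 arrays (points) by genotype and compartment (x axis), with the group mean ± SD (n = 3). The dotted line is the median of all genes (6.39), and the vertical scale differs between panels. Rgs13 and Dclk1 peak in Rb villi, and Alox5ap is highest in QKO villi and lowest in TKO villi.

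Alox5ap (chr5:149265004-149288153) encodes the membrane protein that presents arachidonic acid to 5-lipoxygenase, and myeloid cells make it too. In villi it read 7.36, 6.87 and 7.82 in WT, 8.37, 7.45 and 7.75 in Rb, 6.62, 5.71 and 5.13 in TKO and 7.74, 8.0 and 8.86 in QKO. All TKO arrays lay below every other villus array, and the remaining 3 genotypes overlapped. QKO minus TKO was 2.38 ± 0.35, or 5.20-fold (adjusted p = 0.00038), and was called under all 17 alternatives (2.03 to 2.78). TKO minus WT was -1.53 ± 0.35 (adjusted p = 0.0072), -1.28 (adjusted p = 0.064) with sex as a covariate and -1.29 (adjusted p = 0.054) without WT villi 3. Rb minus WT was 0.51 ± 0.35 (adjusted p = 0.38).

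The response of Alox5ap to Rb loss differed with E2f status. QKO minus TKO exceeded Rb minus WT in villi by 1.87 ± 0.50 (adjusted p = 0.014), the only call among the 9 markers in that contrast, beside 15.4% of all genes. It was called under all 23 alternatives, from 1.52 to 2.27. Of the 3 markers called in QKO minus TKO, Rgs13 and Dclk1 gave -0.20 ± 0.72 and 0.15 ± 0.40 for the same difference, both uncalled (adjusted p = 0.89 and 0.85). QKO minus Rb of Alox5ap, 0.34 ± 0.35, was uncalled (adjusted p = 0.54).

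Alox5ap in crypts read 7.00, 6.41 and 6.70 in WT, 6.72, 6.79 and 7.20 in Rb, 6.76, 6.55 and 5.95 in TKO and 6.85, 6.99 and 6.21 in QKO. The 4 ranges overlapped. Villi exceeded crypts in QKO by 1.52 ± 0.35 (adjusted p = 0.0022), beside 33.4% of all genes called. QKO minus TKO in villi exceeded that in crypts by 2.11 ± 0.50 (adjusted p = 0.12), where 0.0605% of all genes were called. With the replicate number as a block, which paired crypts with villi in both genotypes, the adjusted p was 0.044.

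Macrophage markers moved with Alox5ap in QKO villi. The mean of 12 such markers read 5.80, 6.41 and 7.33 on QKO villi 1 to 3, in the same order as Alox5ap, against 5.52 to 5.95 on TKO villi and 5.55 to 5.88 over WT and Rb villi. Of the 12, 4 were called higher in QKO minus TKO and 0 lower (median 0.95), beside 6.68% of all genes called. In TKO minus WT villi, where Alox5ap was lower, 0 of the 12 were called, beside 9.77% of all genes, and the median was -0.11. On QKO villi 1, where these markers read 5.80, Alox5ap read 7.74, above all TKO arrays. Without QKO villi 3 its QKO minus TKO difference was 2.05 (adjusted p = 0.0040). The part of macrophages in it was not tested.

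Alox5 (chr6:116410071-116461178) encodes 5-lipoxygenase, the first enzyme of leukotriene synthesis. It read 6.65, 6.66 and 6.80 in WT villi, 6.87, 6.63 and 6.67 in Rb villi, 6.34, 6.11 and 6.16 in TKO villi and 6.53, 6.31 and 7.11 in QKO villi. TKO lay below WT and Rb without overlap, whereas QKO spanned both. TKO minus WT was -0.50 ± 0.16 (adjusted p = 0.056) and QKO minus TKO 0.45 ± 0.16 (adjusted p = 0.11), both uncalled. Its crypt levels ran from 6.23 to 6.76 over all 12 arrays.

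Hpgds (chr6:65117293-65144981) encodes the prostaglandin D synthase of blood and tuft cells. It read 5.23, 4.92 and 5.58 in QKO villi and 4.82, 4.65 and 4.72 in TKO villi, and these groups did not overlap. Rb villi read 4.72, 4.77 and 4.68, and WT villi 4.45, 4.51 and 5.27. The differences of 0.51 ± 0.19 for QKO minus TKO (adjusted p = 0.11) and 0.52 ± 0.19 for QKO minus Rb (adjusted p = 0.051) were not called. Every group mean of Hpgds lay below 6.39, and no neighbours in the order differed beyond their SDs.

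Vil1 (chr1:74409384-74435560) encodes villin, which bundles actin in the microvilli of enterocytes as well as of tuft cells. It read 13.15, 12.92 and 13.0 in WT crypts and 13.53, 13.58 and 13.32 in WT villi. TKO read 12.84, 12.69 and 12.96 in crypts and 13.25, 13.47 and 13.58 in villi, and QKO read 12.66, 12.92 and 13.06 in crypts and 13.17, 13.38 and 13.52 in villi. Rb read 12.81, 12.83 and 13.20 in crypts and 13.31, 13.23 and 13.43 in villi. In each genotype every villus array lay above every crypt array. Villi exceeded crypts by 0.45 ± 0.13 in WT (adjusted p = 0.0090), by 0.60 ± 0.13 in TKO (adjusted p = 0.0054) and by 0.48 ± 0.13 in QKO (adjusted p = 0.0072). The call in QKO was lost with only the groups compared (0.48, adjusted p = 0.051) and without QKO crypts 1 (0.37, adjusted p = 0.053). In Rb the difference was 0.37 ± 0.13 (adjusted p = 0.054). Vil1 was the only marker with all 8 group means far above the median of all genes, its lowest array at 12.66, and 0 of its 8 genotype differences was called.

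Over compartments, 3 of 9 markers were called between WT villi and WT crypts (Pou2f3, Gfi1b and Vil1, all higher in villi), beside 37.4% of all genes called. In Rb 2 were called (Rgs13 and Dclk1), beside 17.3% of all genes, and in TKO 1 (Vil1), beside 15.4%. In QKO 2 were called (Alox5ap and Vil1), beside 33.4%. No marker was called lower in villi. Whether genotypes differed in this was tested as a difference of differences. In none of the 4 such contrasts was a marker called. Of all genes 5.22% were called for Rb minus WT, 3.43% for TKO minus WT, 0.0605% for QKO minus TKO and 7.55% for QKO minus Rb. At an unadjusted p under 0.05 there were 0 markers for Rb minus WT, 4 for TKO minus WT, 2 for QKO minus TKO and 0 for QKO minus Rb. All genes were not counted at that threshold, so these counts have no background. The nearest in Rb minus WT was Rgs13, at 1.47 ± 0.72 (adjusted p = 0.27). In crypts QKO minus TKO minus (Rb minus WT) gave 0 called markers, beside 0.0275% of all genes, and 1, Gfi1b, at an unadjusted p under 0.05 (-0.46 ± 0.18).

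Some markers varied together across arrays. Over 24 arrays Rgs13 and Dclk1 correlated at 0.92, and their deviations from the group means at 0.80. Dclk1 and Alox5ap correlated at 0.82 over arrays and 0.63 over deviations, and Alox5 and Alox5ap at 0.81 and 0.71. Trpm5 correlated with Rgs13 at 0.64 and with Dclk1 at 0.62. Pou2f3 reached 0.44 with Dclk1 and 0.38 with Rgs13, and Gfi1b 0.43 and 0.45. Vil1 correlated with Dclk1 at 0.19 and with Rgs13 at 0.11, but with Trpm5 at 0.62, the value of Trpm5 with Dclk1. These values describe 24 arrays that share labelling, normalization and group differences.

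**Figure D3:**
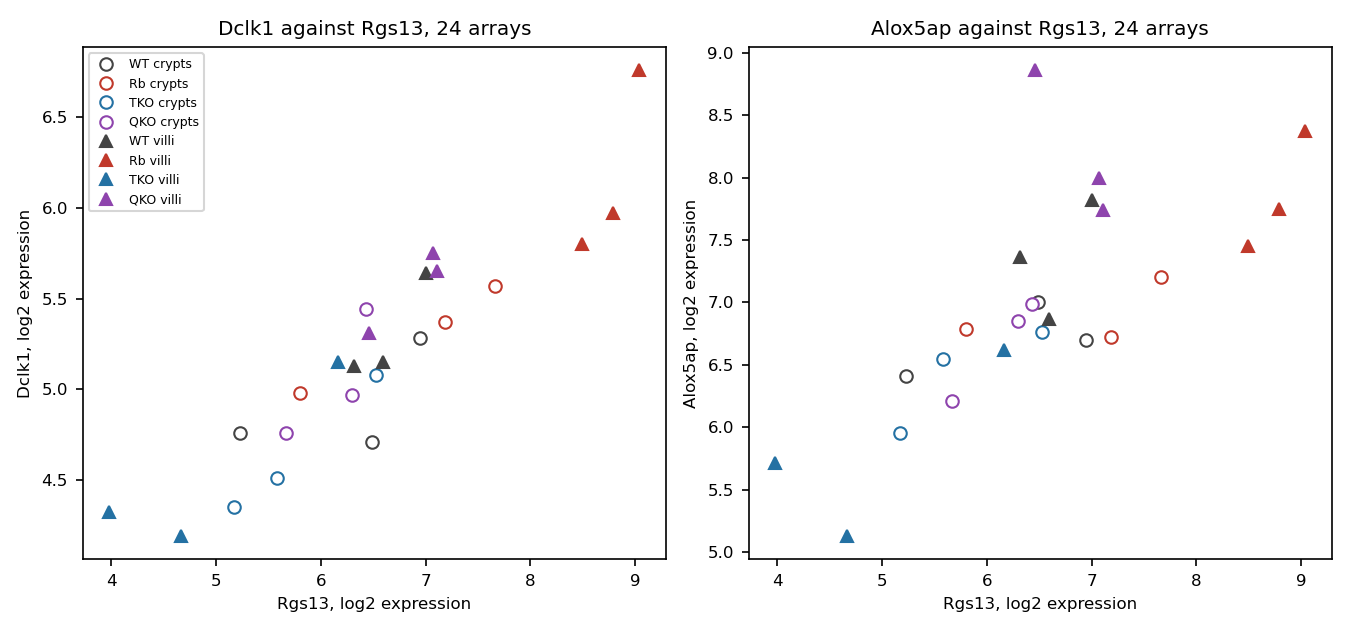
Log2 expression of Dclk1 (left, y axis) and Alox5ap (right, y axis) against Rgs13 (x axis) on 24 arrays, circles for crypts and triangles for villi. Dclk1 follows Rgs13 along a line from TKO villi to Rb villi (r = 0.92), and Alox5ap follows it less closely (r = 0.74), with QKO villi 3 at 8.86 for Alox5ap and 6.46 for Rgs13.

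By Pearson r over the 8 group means, the genes most like Dclk1 were Pld2 and Cenpj (both 0.97), Rgs13 (0.97), Rock1 and Mss51 (both 0.96). Over 24 arrays their correlations with Dclk1 were 0.88, 0.68, 0.92, 0.73 and 0.67. Those most like Trpm5 were Syt12, Themis3, Adss, Ipmk and Cyp4f16, from 0.97 to 0.98. Their correlations with Trpm5 over 24 arrays were lower, at 0.71, 0.68, 0.77, 0.81 and 0.70. Predicted genes, Riken clones and genes with a mean at or below 6.39 were not ranked. This left out Pou2f3, Gfi1b, Trpm5, Dclk1 and Hpgds in advance. Of the markers that could be ranked (Rgs13, Alox5, Alox5ap and Vil1) only Rgs13 was among these genes.

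Beyond the 9 markers, 40 other tuft cell genes were measured, a list drawn up from general knowledge of tuft cells. In Rb minus WT villi 3 were called higher and 1 lower (median 0.11, against -0.08 over all genes), a share of 10% beside 14.8% of all genes. Siglecf, a sialic acid-binding lectin of mouse intestinal tuft cells and of eosinophils, read 3.88, 4.30 and 4.80 in WT and 6.54, 5.73 and 5.83 in Rb villi. All Rb arrays lay above all WT arrays (1.71 ± 0.30, adjusted p = 0.00031). Nebl, an actin-binding protein gene, read 4.97, 5.0 and 5.10 in WT and 6.55, 5.79 and 6.27 in Rb villi (1.18 ± 0.21, adjusted p = 0.00035). Bmx, a Tec family kinase gene, read 4.48, 4.36 and 4.82 in WT and 6.06, 5.10 and 5.63 in Rb villi (1.04 ± 0.22, adjusted p = 0.0025). These 3 genes are named because they were called here, so their lack of overlap between WT and Rb villi is no separate result. Their highest villus reading was on Rb villi 1, as was that of Rgs13, Dclk1 and Trpm5. The other measured markers had theirs elsewhere: Pou2f3 on WT villi 1, Gfi1b on Rb villi 2, and Alox5, Alox5ap and Hpgds on QKO villi 3. Vil1 had its highest on WT villi 2 and TKO villi 3, both at 13.58. In Rb crypts Siglecf read 3.94, 3.28 and 4.51, and 0 of the 40 were called in Rb minus WT crypts (1 at an unadjusted p under 0.05).

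Ltc4s, which encodes the synthase of leukotriene C4 and is also expressed by mast and myeloid cells, went the other way. It read 9.23, 9.17 and 9.37 in WT villi, 8.30, 8.26 and 7.77 in Rb villi, 8.62, 7.23 and 7.56 in TKO villi and 8.24, 8.28 and 8.20 in QKO villi. WT villi stood above all others. Rb minus WT was -1.15 ± 0.32 (adjusted p = 0.019) and TKO minus WT -1.45 ± 0.32 (adjusted p = 0.0053).

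In TKO minus WT villi 0 of the 40 were called higher and 3 lower (median -0.15), 7.5% beside 9.77% of all genes. The 3 were Ltc4s, Siglecf (-1.02 ± 0.30, adjusted p = 0.030) and Spib, an ETS transcription factor gene (-0.97 ± 0.27, adjusted p = 0.023). Siglecf read 3.68, 3.01 and 3.23 in TKO villi, near the low end of the scale. Every group mean of Siglecf, Nebl and Bmx lay below 6.39, the median of all genes. In QKO minus TKO villi 12 were called higher and 0 lower (median 0.44, against 0.04 over all genes), 30.0% beside 6.68% of all genes. Among them Siglecf rose by 1.22 ± 0.30 (adjusted p = 0.015), Lrmp, an endoplasmic reticulum membrane protein gene, by 1.22 ± 0.30 (adjusted p = 0.018) and Sh2d6, an SH2 domain protein gene, by 1.10 ± 0.28 (adjusted p = 0.019). Sh2d6 read 5.36, 4.70 and 4.70 in TKO villi and 6.43, 5.75 and 5.86 in QKO villi, with no overlap. T cell markers moved with this list. The mean of 10 such markers read 8.57, 8.47 and 8.97 in QKO villi, above every other villus array (TKO 7.64, 7.71 and 8.41). Gzmb, a granzyme gene of killer lymphocytes, had means of 12.08 in QKO and 10.57 in TKO villi, and 2 of the 10 were called higher (median 1.0). Some of the 12 genes, such as Lrmp and Ptpn6, are also expressed in lymphocytes, and the part of T cells in these differences was not tested.

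In QKO minus Rb villi 5 of the 40 were called higher and 5 lower, 25.0% beside 22.2% of all genes, with Siglecf at -1.51 ± 0.30, Bmx at -0.92 ± 0.22 and Hebp1, a heme-binding protein gene, at 1.29 ± 0.37. In crypts the counts were 0 higher and 2 lower in TKO minus WT (Spib and Ptpn6), 1 and 0 in QKO minus TKO (Ptpn18, 0.59 ± 0.13), and 4 and 1 in QKO minus Rb. These are 5.0%, 2.5% and 12.5% of the 40, beside 4.73%, 1.61% and 17.2% of all genes. Between villi and crypts 27.5% of the 40 were called in WT, 32.5% in Rb, 15% in TKO and 45% in QKO, beside 37.4%, 17.3%, 15.4% and 33.4% of all genes.

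**Figure D4:**
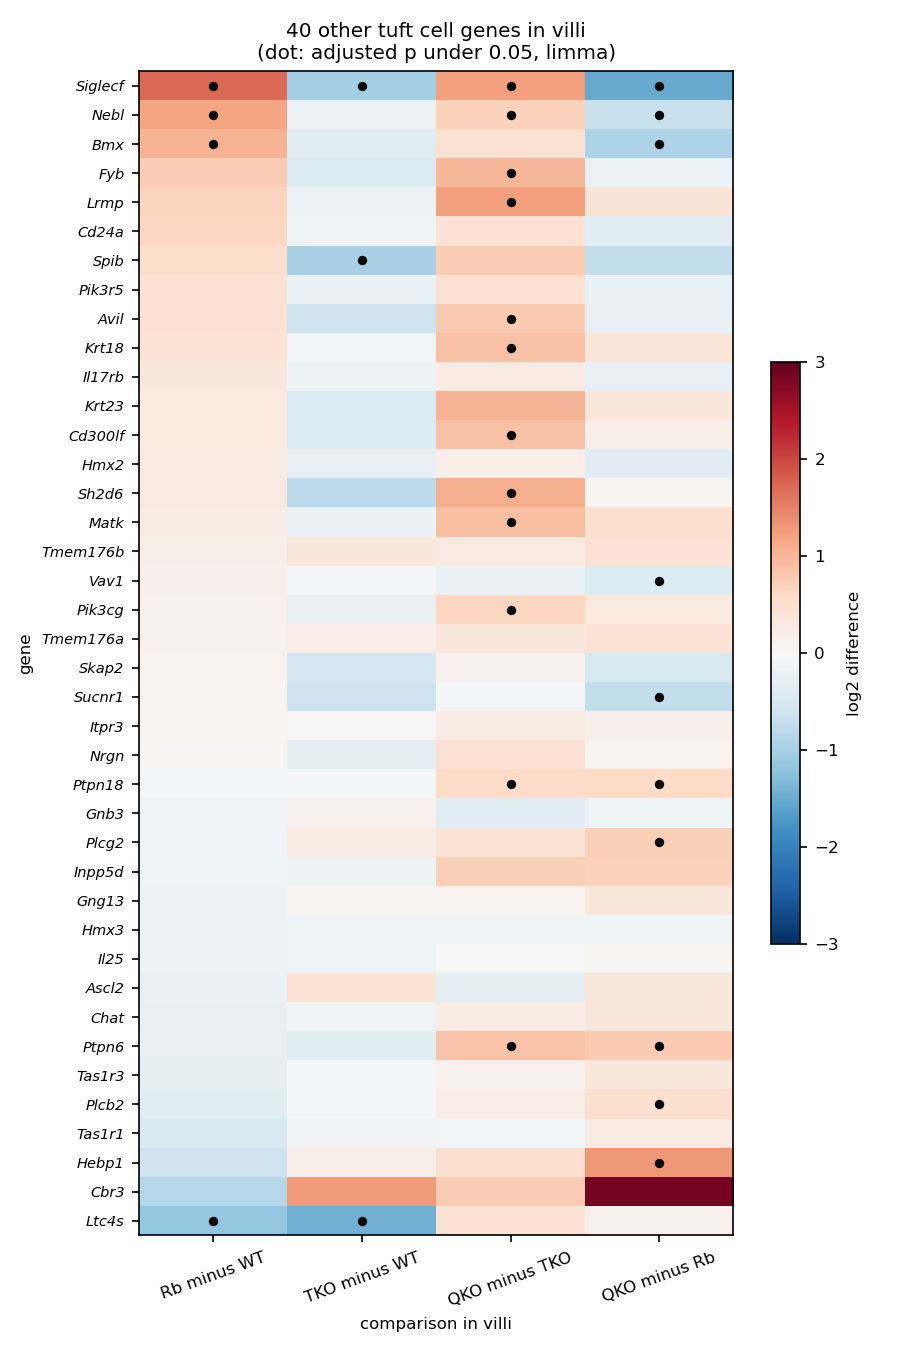
Log2 differences (colour, scale from -3 to 3) of 40 other tuft cell genes (rows) in 4 comparisons of villi (columns), with a dot where the adjusted p from limma was under 0.05. Siglecf carries a dot in all 4 columns, and the 12 dots of QKO minus TKO all stand on higher values.

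Receptor and signalling genes of taste-type transduction were read in the same way. Of 9 measured members, Trpm5 included, 0 were called in Rb minus WT, TKO minus WT or QKO minus TKO villi. The shares of all genes called there were 14.8%, 9.77% and 6.68%, and a list of 9 is too short to set 0 calls apart from them. At an unadjusted p under 0.05 there were 2, 0 and 2, counts without a background. In QKO minus Rb villi 2 were higher, Plcg2 (0.71 ± 0.15, adjusted p = 0.0020) and Plcb2 (0.47 ± 0.12, adjusted p = 0.0078), both phospholipase C genes, or 22.2% of the list and of all genes. In QKO minus Rb crypts Plcg2 alone was called (0.64 ± 0.15), beside 17.2% of all genes. Between compartments, 4 of the 9 were higher in villi than in crypts of QKO (44.4%, beside 33.4% of all genes). They included the taste receptor gene Tas1r3 (0.42 ± 0.13, adjusted p = 0.012), Plcb2 (0.40 ± 0.12, adjusted p = 0.013) and the G protein subunit gene Gng13 (0.36 ± 0.14, adjusted p = 0.047). In villi minus crypts 1 was called lower in WT, and 0 in Rb and TKO, beside 37.4%, 17.3% and 15.4% of all genes called.

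Of 26 prostaglandin and leukotriene genes, 3 of them markers already described, Rb minus WT villi had 1 higher and 4 lower, and TKO minus WT villi 1 higher and 3 lower. QKO minus TKO and QKO minus Rb villi each had 2 higher and 1 lower. As shares these were 19.2%, 15.4%, 11.5% and 11.5% of the list in the order given, beside 14.8%, 9.77%, 6.68% and 22.2% of all genes. Pla2g4a, the cytosolic phospholipase that frees arachidonic acid, read 5.39, 5.72 and 5.26 in WT and 6.42, 6.47 and 6.50 in Rb villi, without overlap (1.01 ± 0.29, adjusted p = 0.023). Ptgs2, the inducible cyclooxygenase gene, was higher in QKO than in TKO villi by 0.69 ± 0.14 (adjusted p = 0.0038), at group means of 3.93 and 3.24. It read no higher than 4.26 on any array, near the low end of the scale and below the median of all genes. Pla2g2a, a secreted phospholipase gene, was lower in TKO than in WT villi by the largest amount of the list, with means of 7.89 and 12.73 (-4.84 ± 0.44, adjusted p = 4.1e-07). It was low in every group without E2f1 to E2f3. QKO villi had a mean of 6.38, beside 12.99 in Rb villi. Crypt means were 8.88 in TKO and 8.22 in QKO, beside 14.39 in WT and 14.11 in Rb. The cause was not tested, and E2f status cannot be told apart from the technical difference between these arrays.

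Markers of other cell types were read beside these results. Of 9 eosinophil and neutrophil markers, Siglecf among them, the other 8 had Rb villus means of 3.17 to 4.80 and WT villus means of 3.19 to 5.0, and 1 of the 9, Siglecf itself, was called higher in Rb minus WT. Over 12 mast cell markers the array means were 4.78 to 4.83 in Rb villi and 4.82 to 5.03 in WT villi, with 0 called higher and 1 lower. Over 9 proliferation markers the array means were 10.60 to 10.82 in Rb and 8.08 to 8.42 in WT villi, and all 9 were called higher. Enteroendocrine markers, of another rare secretory lineage, read 6.59 to 6.70 in Rb, 7.15 to 7.66 in WT, 6.98 to 7.82 in TKO and 8.40 to 8.98 in QKO villi. Of 14 of these, 5 were called lower in Rb minus WT villi and 9 higher in QKO minus TKO villi. Of all genes 14.8% were called in Rb minus WT villi and 6.68% in QKO minus TKO villi. Stroma and muscle markers read 5.54, 6.51 and 6.84 in QKO villi and 5.03 to 5.40 in TKO villi. The part of these cells in the differences of the tuft cell markers was not tested.

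**Figure D5:**
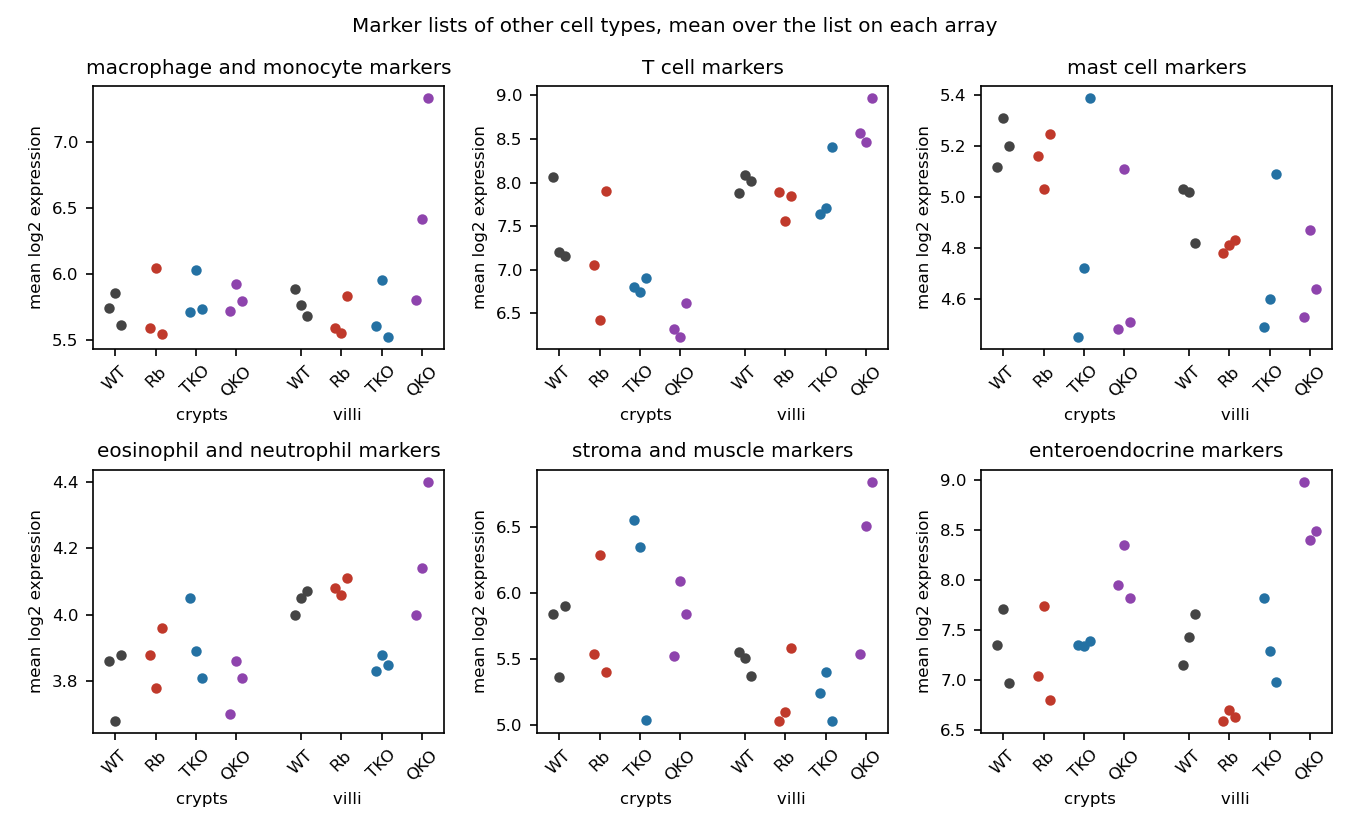
Mean log2 expression (y axis) over 6 marker lists of other cell types on each of 24 arrays (points) by genotype and compartment (x axis). QKO villi 2 and 3 stand above the other villus arrays in macrophage and stroma markers, and all QKO villi in enteroendocrine and T cell markers, whereas Rb villi stand below WT villi in enteroendocrine markers.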

How the data were processed

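Per the labels' protocols, RNA was isolated with Trizol, and 3 ug of it went into biotinylated cRNA. The authors deposited log2 values for each probe set of an Affymetrix mouse array, from 2.29 to 14.89, with array medians of 4.97 to 5.26. Their summarisation and normalization steps are not given in the sources used. No further normalization was applied. The platform annotation gave 1 gene to 34945 of 45101 probe sets, several to 932 and none here to 9160, and 64 were controls. Symbols of 34741 were updated by Entrez identifier. Each of 18193 genes was read from its probe set with the highest mean.

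The tests came from limma 3.58.1 (R 4.3.3), fitted to 24 arrays with a mean for each group. Variances were moderated along an intensity trend, with 16 residual and 4.86 prior degrees of freedom. The 2-sided p-values were adjusted after Benjamini and Hochberg over all genes, separately in 18 comparisons. The script was tested on simulated data. Within groups arrays correlated at 0.978 to 0.995, and 0 pairs were identical. The number of arrays limits the precision. Same-numbered crypt and villus arrays correlated in their deviations at 0.61, 0.55 and 0.64 in TKO and 0.55, 0.25 and 0.37 in QKO, so numbers pair them there, by the values. In WT the values were 0.01, 0.13 and 0, and in Rb 0.06, -0.01 and -0.24. Figures were drawn with matplotlib 3.10.9.

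Members, lists, tests and alternatives were chosen with earlier results of these data known. Named were all members and, from the lists of other tuft cell, taste-type and prostaglandin and leukotriene genes, the 3 called genes with the largest differences per comparison, not all of which are described. Also named were the 5 genes most alike in pattern to Dclk1 and Trpm5, among genes with a mean above the median of all genes. The rule asked the same for the mean of members with a group mean above the median, which is not given because a single high group admits a member. Genes named outside this rule were chosen after their values were seen. Promoters came from RefSeq (GRCm38.p6).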

Additional observations from a re-analysis of the deposited data

Results flagged for a closer look

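In villi, 7 genes of the tuft cell marker, tuft cell and eicosanoid lists responded differently to Rb loss with and without E2f1 to E2f3. They were 1 of the 9 markers (11.1%), 4 of 40 other tuft cell genes (10%) and 4 of 26 prostaglandin and leukotriene genes (15.4%), lists that share members, beside 15.4% of all genes called, so these lists held no larger share of such genes than all genes did. QKO minus TKO exceeded Rb minus WT by 1.87 for Alox5ap (adjusted p = 0.014) and 1.58 for Ltc4s (adjusted p = 0.022). It did so by 0.92 for Ptgs2 (adjusted p = 0.0023), whose levels lie near the low end of the scale. For Ptgds, a prostaglandin D synthase gene, QKO minus TKO exceeded Rb minus WT by 0.74 (adjusted p = 0.048). It exceeded it by 1.10 for Ptpn6, a phosphatase gene shared with blood cells (adjusted p = 0.0030), by 0.65 for Ptpn18 (adjusted p = 0.020) and by 0.52 for Plcb2 (adjusted p = 0.042).

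For 5 gene and genotype pairs the genotype difference itself differed between villi and crypts. Of the 40 other tuft cell genes these were 5.0% for Rb minus WT and 7.5% for QKO minus Rb, close to the 5.22% and 7.55% of all genes. Rb minus WT was higher in villi than in the arrays labelled crypts by 1.55 for Siglecf (adjusted p = 0.033) and by 1.11 for Nebl (adjusted p = 0.029). QKO minus Rb was higher in villi by 1.31 for Ptpn6 (adjusted p = 0.0030), 1.26 for Inpp5d, an inositol phosphatase gene shared with blood cells (adjusted p = 0.046), and 0.56 for Plcb2 (adjusted p = 0.048). Of the 12 macrophage markers 5 were also called higher in QKO minus Rb villi, beside 22.2% of all genes called. The mean of 10 T cell markers was 8.67 in QKO and 7.77 in Rb villi, and 6.39 and 7.13 in their crypts, and 4 of the 10 were called in the villus minus crypt contrast of QKO minus Rb, all higher. The part of macrophages and T cells in these differences was not tested.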

How the results depend on the processing

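Over 75 called differences and 1264 alternative values, 1096 stayed called in the same direction, 168 lost the call and 0 reversed. Called marker counts moved as follows. In villi minus crypts they were 1 in WT (3 before) with dim genes removed, which left 4 markers tested, 5 in Rb (2 before) with array weights or the replicate block, 0 in Rb without the pair of doubtful crypt arrays (WT 3 and Rb 2), and 1 in QKO (2 before) with only the groups compared. Rb minus WT villi gave 1 (2 before) with the mean of probe sets or dim genes removed. TKO minus WT gave 1 in crypts (0 before) and 0 in villi (2 before) with sex as a covariate, and 4 in villi with quantile normalization. QKO minus TKO villi gave 1 (3 before) with only the groups compared. QKO minus Rb gave 1 in crypts (0 before) without the pair of doubtful crypt arrays (WT 3 and Rb 2). In villi it gave 2 (1 before) with the mean of probe sets, centring or the replicate block, and 4 with quantile normalization. The villus minus crypt contrast of TKO minus WT gave 1 (0 before) with the mean of probe sets, no intensity trend, array weights, the replicate block or sex, and that of QKO minus TKO gave 1 with the block. The numbers do not pair arrays in WT or Rb, and the block changed no other count by over 1.5 times. Without each replicate in turn, villi minus crypts ranged from 1 to 3 in WT, 0 to 4 in Rb, 1 to 1 in TKO and 1 to 2 in QKO. In villi Rb minus WT ranged from 1 to 2, TKO minus WT from 0 to 3, QKO minus TKO from 1 to 3 and QKO minus Rb from 1 to 2. QKO minus Rb crypts, and the villus minus crypt contrasts of TKO minus WT and QKO minus TKO, ranged from 0 to 1, and QKO minus TKO minus (Rb minus WT) in villi stayed at 1. Centring on array medians moved the median of all genes in that last contrast by -0.12. The causes were not tested. Signals near the low end of the scale, as for most probe sets of Dclk1, limit what can be seen.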
